A study of Mus musculus with 2 samples.

Results

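Bile acid synthesis and transport was followed through 10 genes, taken by symbol for their roles in the pathway. They were Cyp7a1, Cyp8b1, Cyp27a1 and Cyp7b1 (synthesis), Baat (conjugation), Slc10a1, Slco1b2 and Abcb11 (transport), and Nr1h4 and Nr0b2 (regulation). All 10 were listed among the 32285 genes of both count tables. The tables came from droplet-based single-cell RNA sequencing of mouse liver, in which each barcode marks 1 droplet and each unique molecular identifier (UMI) marks 1 captured RNA molecule. There was 1 library from WT mice and 1 from HKO littermates, which carried a floxed miR-33 allele and Cre recombinase driven by the albumin promoter, so that miR-33 was deleted in hepatocytes. Both groups received the CD-HFD, a diet rich in fat and lacking choline, for 6 months from 8 weeks of age. By the methods of the study the mice were male and went without food for 6 h before the end. Each library pooled 3 livers, and hepatocytes and sorted non-parenchymal cells were mixed 1:1 before loading. With 1 library per genotype there was no replicate and no test between genotypes, and every interval below is at 95% and covers counting error only.

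Bile acids are made from cholesterol in hepatocytes. The classic route begins with CYP7A1, its rate-limiting enzyme, and the acidic route with CYP27A1 and CYP7B1, while CYP8B1 sets how much cholic acid is formed. BAAT joins bile acids to taurine or glycine, BSEP (Abcb11) exports them into the canaliculus, and NTCP (Slc10a1) and OATP1B2 (Slco1b2) take them up again from blood. FXR (Nr1h4) is the nuclear receptor for bile acids, and it induces SHP (Nr0b2), which restrains Cyp7a1 and Cyp8b1. In the liver lobule, bile acid synthesis is a function of hepatocytes near the central vein.

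The study profiled single cells of both genotypes to learn how miR-33 affects the separate cell populations of the liver in advanced disease. It describes miR-33 as a regulator of lipid metabolism and counts Cyp7a1 among the miR-33 targets. The sequences below are shown because they let a reader see which of the 10 genes carry letters that pair with miR-33. Mature miR-33-5p, from RefSeq (GRCm38.p6), is 21 bases long and is encoded at chr15:82198127-82198147 on the plus strand, within Srebf2 and outside the exons of its coding transcripts. Its seed, bases 2 to 8, is in capitals.
mmu-miR-33-5p: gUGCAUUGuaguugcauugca
The 3'UTRs of GENCODE M21 (GRCm38, the longest per gene) were searched on the transcript strand for CAATGCA, which pairs with the whole seed, for its extended form CAATGCAA, and for the shorter form AATGCAA without the leading C. CAATGCA stood in 0 of the 10 3'UTRs, against 7.14% of 20868 coding genes, and AATGCAA without the C stood in 2 of 10, against 9.47%. The Cyp7a1 3'UTR is 2600 bases long (gene at chr4:6265612-6275633, minus strand) and held none of the 3 forms, whereas 20.0% of 3'UTRs at least as long held CAATGCA. This says only that these letters are absent from the annotated window. The 2 members with the shorter form were Cyp7b1 (chr3:18072380-18072386, minus strand) and Slco1b2 (chr6:141685804-141685810, plus strand), shown with the match in capitals.
Cyp7b1: gcactcccccaAATGCAAccgctactctt
Slco1b2: tgtaaagactgAATGCAAtgaatgaagtt
Upstream of the 3'UTR, CAATGCA occurred once among the members, in Abcb11. For contrast, 3 targets of miR-33 that the study names were searched in the same way, and each held the full match: Abca1, which exports cholesterol to lipoproteins, at 3 places, and Crot and Cpt1a, which act in fatty acid oxidation, at 1 place each. The first Abca1 site (chr4:53033801-53033808, minus strand), the Crot site (chr5:8966685-8966692, minus strand) and the Cpt1a site (chr19:3385486-3385493, plus strand) are shown with the match in capitals.
Abca1: ctgacactattCAATGCAAtgcacttcaat
Crot: tgttgcaaccaCAATGCAAagtcagatata
Cpt1a: tgagcagttacCAATGCAAttttttactcc

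Depth differed between the libraries, with 130451427 UMIs over 30078 barcodes in WT against 52563185 over 20000 in HKO. The commonest depth was 2594 UMIs per barcode in WT and 779 in HKO, and hepatocyte markers were counted in T and NK-like barcodes too, at a median of 179.5 UMIs in WT and 40 in HKO. A barcode was therefore called hepatocyte-like when it had at least 5000 UMIs and fell in no cluster with 3 or more markers of another cell class. This left 2033 WT barcodes (median 19123 UMIs) and 1657 HKO barcodes (median 10685). All 7 hepatocyte markers were detected in them, at 66752 UMIs per 1000000 (CPM) in WT and 54299 in HKO, and a median of 1072 and 494 UMIs per barcode. The largest cluster was the same in both libraries and held 33.5% of them in WT and 61.1% in HKO, while another held 20.9% and 7.24%. Clusters with low medians over all their barcodes (2379, 2280, 2686 and 920 UMIs) held 3.10%, 0.443%, 6.44% and 6.35% in WT. In HKO these held 0%, 0%, 0% and 0.905%. Another with a low median (2411.5 UMIs) went the other way, at 2.26% in WT and 7.97% in HKO. Other marker lists were not level between the libraries: erythroid genes summed to 673 CPM in WT and 109 in HKO, and B and plasma cell genes to 6.76 and 58.3 CPM, with 1 of those 7 markers at 0 in HKO. Their part in the results was not tested. Mir33 and the Cre transgene had no row in the tables, so the deletion could not be checked directly, and the host gene Srebf2 stood at 24.7 CPM in WT and 19.9 in HKO.

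Cyp7a1 was the member with the largest ratio between the genotypes. It stood at 19.6 CPM in WT hepatocyte-like barcodes (95% interval 18.4 to 20.8, 969 UMIs) and at 71.4 CPM in HKO (67.9 to 75.1, 1493 UMIs), an HKO over WT fold of 3.65 (3.37 to 3.96). It was the 1 of 10 members at least 1.5-fold higher in HKO, where 2.38% of the 7093 genes with a mean of at least 10 CPM passed the same fold. Cyp27a1 and Abcb11 were the 2 of 10 at least 1.5-fold lower, where 4.38% of all genes were. The Cyp27a1 call was marginal: under equal weights for barcodes its ratio was 0.698, with a mitochondrial share of at most 20% 0.669, with totals free of mitochondrial genes 0.673 and at 5000 to 20000 UMIs 0.756, which left 1 member. At 2-fold, Cyp7a1 passed again (0.395% of all genes higher) and 0 members were lower (0.916% of all genes). The median log2 ratio of the 10 members was -0.05, beside -0.01 over all genes, and 5 members lay above a ratio of 1 and 5 below. The members thus differed in direction, and the rate-limiting enzyme stood apart from the rest.

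**Figure D1:**
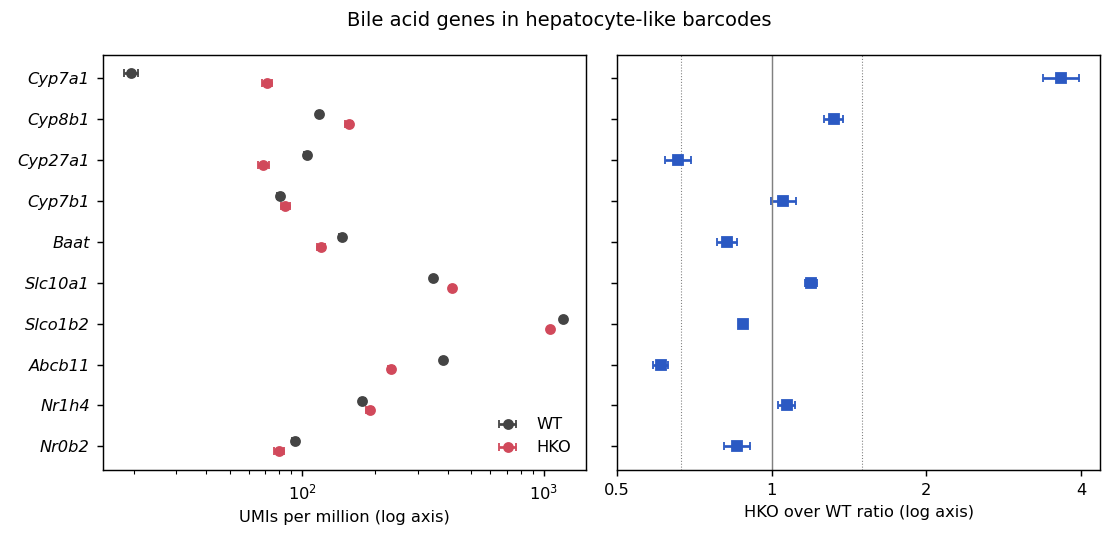
Level of each of the 10 genes in hepatocyte-like barcodes (left, CPM on a log axis, WT and HKO) and the HKO over WT ratio (right, log axis, dotted lines at 1.5-fold), each from 1 library per genotype with 95% counting intervals. Cyp7a1 lies at 3.65 on the right panel, Cyp27a1 at 0.658 and Abcb11 at 0.608, and the other 7 lie between the dotted lines.

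The other synthesis enzymes did not share the Cyp7a1 ratio. Cyp8b1, the sterol 12α-hydroxylase (chr9:121914356-121916305), stood at 118 CPM in WT and 155 in HKO, a fold of 1.32 (1.27 to 1.38). Cyp27a1, the mitochondrial sterol 27-hydroxylase (chr1:74713574-74737892), went the other way, with 105 CPM in WT and 68.8 in HKO, a fold of 0.658 (0.620 to 0.697). Cyp7b1, the oxysterol 7α-hydroxylase of the acidic route (chr3:18071950-18243338), had 80.8 and 85.1 CPM, a fold of 1.05 whose interval (0.996 to 1.11) included 1. Cyp7a1 and Cyp8b1 of the classic route were thus higher in HKO over all barcodes, while of the acidic route Cyp27a1 was lower and Cyp7b1 had no clear direction. Cyp8b1 turned to 0.804 (0.715 to 0.902) in barcodes with under 5% mitochondrial UMIs. The Cyp7b1 ratio turned with depth and RNA quality: it was 1.27 (1.09 to 1.48) at 5000 to 10000 UMIs per barcode, 0.888 (0.796 to 0.990) at 20000 to 40000, and 1.43 (1.28 to 1.60) in barcodes with under 5% mitochondrial UMIs. The conjugating enzyme Baat (chr4:49489422-49506557) stood at 146 CPM in WT and 119 in HKO, a fold of 0.819 (0.783 to 0.858).

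Among the transporters, the canalicular exporter had the lowest ratio of all members. Abcb11 (chr2:69238282-69342616) stood at 381 CPM in WT and 232 in HKO, a fold of 0.608 (0.589 to 0.628). Slc10a1 (chr12:80953183-80968705), the sodium-dependent uptake carrier, stood at 348 and 415 CPM, a fold of 1.19 (1.16 to 1.22). Slco1b2 (chr6:141629518-141686646), the sodium-independent carrier, had 1202 and 1058 CPM, a fold of 0.880 (0.867 to 0.894). The 2 uptake carriers therefore differed in direction. In low-depth barcodes, those within 25% of the commonest depth of their library (23226 in WT, 7824 in HKO), Slc10a1 turned over to 229 CPM in WT and 199 in HKO, a fold of 0.869.

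Both regulators lay within 1.5-fold of WT. Nr1h4 (chr10:89454234-89533585), the receptor FXR, stood at 177 CPM in WT and 190 in HKO, a fold of 1.07 (1.03 to 1.11). Nr0b2 (chr4:133553376-133556536), which encodes SHP, stood at 93.2 and 79.9 CPM, a fold of 0.857 (0.810 to 0.907). The Nr1h4 ratio was not steady with depth: it was 1.59 among barcodes of 5000 to 10000 UMIs (565 WT, 758 HKO) and 0.895 among those of 10000 to 20000 UMIs (499 WT, 678 HKO). By mitochondrial share it was 1.49 below 5% and 0.972 from 5 to 20%. No direction is therefore drawn for Nr1h4.

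The Cyp7a1 ratio kept its direction across depth and RNA quality. It was 3.77 at 5000 to 10000 UMIs, 4.46 at 10000 to 20000 and 3.10 at 20000 to 40000 (631 WT, 213 HKO), and 5.61 above that, where HKO had 8 barcodes. By the share of UMIs from mitochondrially encoded genes it was 3.73 below 5%, 3.52 from 5 to 20% and 3.21 above. Cyp27a1 stayed between 0.590 and 0.822, Abcb11 between 0.495 and 0.769 and Slco1b2 between 0.726 and 0.950 over the same 7 strata, whereas Slc10a1 was at 0.833 below a mitochondrial share of 5%. In the low-depth barcodes Cyp7a1 stood at 19.0 CPM in WT and 49.8 in HKO, a fold of 2.63 (2.32 to 2.97). Its WT level over all hepatocyte-like barcodes (19.6 CPM, 18.4 to 20.8) overlapped that low-depth level (17.9 to 20.1). The WT side of the fold of 3.65 therefore cannot be told apart from the low-depth level. In the low-depth barcodes Cyp7b1 had a fold of 1.45, Cyp8b1 1.37, Nr1h4 1.19, Slco1b2 0.995, Cyp27a1 0.792, Abcb11 0.719, Nr0b2 0.685 and Baat 0.682. Baat stood at 215 and 146 CPM there, so over all zones it was lower in hepatocyte-like than in low-depth barcodes of either library. Slco1b2 stood at 1204 and 1199 CPM there, level with hepatocyte-like barcodes in WT (1202) and above them in HKO (1058).

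Hepatocyte-like barcodes were next split into 3 zones of equal size in each library along the lobule, by a score of 8 pericentral and 11 periportal landmark genes that included no member. Of the landmarks held out of the score, 7 of 7 pericentral genes were higher in the pericentral zone and 5 of 6 periportal genes were lower, in both libraries, with Igfbp2 as the exception. Cyp7a1 had the steepest gradient of the members. In WT it stood at 4.31 CPM in the periportal zone, 14.96 in the middle zone and 39.7 in the pericentral zone, a pericentral over periportal ratio of 9.202 (7.22 to 11.9). In HKO it stood at 6.50, 34.1 and 179 CPM, which gives 27.6 (20.9 to 37.3). The HKO ratio depended on the processing: it was 12.9 with the own depth minimum of each library (WT 9.12), 18.3 with zone limits shared by both libraries (WT 10.5), 16.2 with a score from Cyp2e1 and Cyp2f2 alone (WT 6.37) and 19.2 after thinning (WT 6.22). Both libraries thus held most Cyp7a1 RNA at the central end of the score.

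In WT and in HKO alike, 5 of 10 members were at least 1.5-fold higher in the pericentral zone, where 6.05% of all genes were in WT and 10.2% in HKO. At 2-fold there were 4 in each library (1.75% and 3.13% of all genes), and 0 members were 1.5-fold higher in the periportal zone (5.74% and 3.64%). Beside Cyp7a1 the 5 were Cyp27a1 (2.62 in WT, 3.64 in HKO), Cyp7b1 (2.64 and 3.22), Slco1b2 (2.16 and 2.71) and Cyp8b1 (1.57 and 1.94). They were all 4 synthesis enzymes and 1 uptake carrier. Cyp8b1 was close to the limit in WT, at 1.36 with the score from Cyp2e1 and Cyp2f2, 1.44 after thinning and 1.494 with a mitochondrial share of at most 20%, which leaves 4 of 10 there. After thinning, Slco1b2 in WT was at 1.99, just under 2-fold. The conjugating enzyme Baat, under its low-depth level in each zone, was flat, with pericentral over periportal ratios of 0.986 in WT and 0.992 in HKO. Slc10a1 leaned to the periportal zone in both libraries (0.846 and 0.871), as did Abcb11 (0.725 and 0.913). With the score from Cyp2e1 and Cyp2f2, Abcb11 was at 0.963 in WT and turned to 1.18 in HKO. Nr0b2 was flat in WT at 1.00 and lower in the pericentral zone of HKO at 0.747, and Nr1h4 was lower there in WT at 0.738 and higher in HKO at 1.14. Median depth from periportal to pericentral was 20894, 15169.5 and 19596 UMIs in WT and 12643, 9020 and 10202 in HKO. Median mitochondrial share was 14.0, 7.04 and 10.8% in WT and 14.1, 13.8 and 12.5% in HKO. The part of either in the gradients was not tested.

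**Figure D2:**
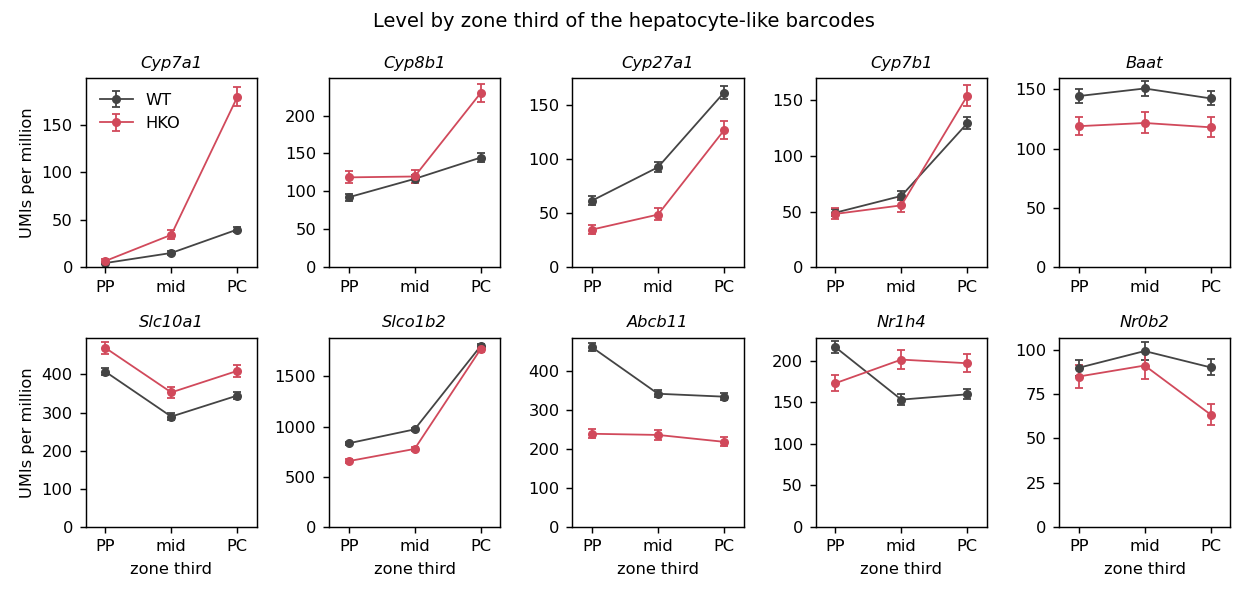
Level of each gene (CPM, axes from 0) in the periportal (PP), middle (mid) and pericentral (PC) zone of hepatocyte-like barcodes, WT and HKO, 1 library each, with 95% counting intervals. Cyp7a1 climbs from 6.50 to 179 CPM in HKO and from 4.31 to 39.7 in WT, while Baat is level across the zones in both.

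The difference between genotypes was set against the zones. Within the periportal zone the Cyp7a1 HKO over WT ratio was 1.51 (1.03 to 2.19), within the middle zone 2.28 (1.89 to 2.76) and within the pericentral zone 4.52 (4.11 to 4.98). With 1 library per genotype, this climb has no test. Cyp8b1 had 1.29, 1.03 and 1.59 in the same order, and Slco1b2 0.786, 0.799 and 0.983. Slc10a1 had 1.15, 1.22 and 1.19, and Cyp7b1 0.977, 0.868 and 1.19. Nr0b2 had 0.945, 0.918 and 0.704, and Nr1h4 0.799, 1.31 and 1.23. Cyp27a1 stayed lower in HKO in each zone, at 0.565, 0.526 and 0.784, as did Abcb11 at 0.518, 0.690 and 0.653 and Baat at 0.824, 0.807 and 0.829. Cyp7a1 was thus higher in HKO in all 3 zones, and Cyp27a1 and Abcb11 lower in all 3. Where a level lay under that of the low-depth barcodes of the same library, a hepatocyte difference cannot be told apart from free RNA. In both libraries this held for Cyp7a1, Cyp7b1, Baat and Slco1b2 in the periportal and middle zones, for Cyp8b1 and Cyp27a1 in the periportal zone, and for Baat and Nr0b2 in the pericentral zone. In HKO alone it held for Cyp8b1 and Cyp27a1 in the middle and Abcb11 in the pericentral zone, and in WT alone for periportal Nr0b2. Slc10a1 and Nr1h4 lay above that level in every zone of both libraries.

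Zones of equal size need not cover the same stretch of the lobule. The HKO pericentral zone was richer in perivenous genes: Glul, the glutamine synthetase of the hepatocytes around the central vein, stood at 1161 CPM there and at 419 CPM in WT. Limits shared by both libraries put 541 WT and 689 HKO barcodes in the periportal, 817 and 413 in the middle, and 675 and 555 in the pericentral zone. Under them the Cyp7a1 ratio was 2.58 (1.82 to 3.69), 2.80 (2.29 to 3.41) and 4.49 (4.08 to 4.94). The contrast between periportal and pericentral ratios was therefore smaller with shared limits. In the periportal and middle zones, however, the levels were 3.78 and 13.5 CPM in WT and 9.77 and 37.9 in HKO. These lay under those of the low-depth barcodes (19.0 and 49.8 CPM, a fold of 2.63). There a hepatocyte difference cannot be told apart from free RNA.

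Because Glul and Cyp7a1 moved together, barcodes were also divided by Glul itself, a division chosen after the data were seen. Barcodes with at least 1000 CPM of Glul made up 1.52% of WT hepatocyte-like barcodes (31 of 2033, interval 1.04 to 2.16%) and 4.89% of HKO ones (81 of 1657, 3.90 to 6.04%). They held 11.9% of the Cyp7a1 UMIs in WT and 22.6% in HKO. Within them Cyp7a1 stood at 145 CPM in WT and 358 in HKO, a fold of 2.48 (2.00 to 3.09). In barcodes with some Glul below that level it stood at 19.5 and 105 CPM, a fold of 5.36 (4.81 to 5.98), and in barcodes without a Glul UMI at 13.1 and 35.7 CPM, a fold of 2.73 (2.31 to 3.24). Cyp7a1 was thus higher in HKO in each Glul bin. In barcodes without Glul, however, its levels lay under those of the low-depth barcodes (19.0 CPM in WT, 49.8 in HKO) at a like fold (2.63), so in that bin a hepatocyte difference cannot be told apart from free RNA. Other perivenous genes were also unlevel between the genotypes there: from no Glul to Glul-rich, Oat had folds of 2.47, 4.56 and 1.84, Slc1a2 of 2.17, 3.95 and 1.24 and Cyp2e1 of 1.03, 1.55 and 0.843. Glul itself had 1.17 in the middle bin and 1.30 in the Glul-rich one. Depth differed too, with medians of 14728, 23867 and 24124 UMIs in WT and 10140.5, 12641 and 8997 in HKO. The part of position and depth in the Cyp7a1 folds was not tested. Without the Glul-rich barcodes, the ratio over all the others was 3.30.

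Glul-rich barcodes also showed how the members ranked around the central vein. Cyp7a1 was 11.1-fold higher in them than in barcodes without Glul in WT and 10.0-fold higher in HKO. Cyp27a1 had 4.46 and 3.37, Cyp7b1 4.32 and 3.11, and Slco1b2 3.93 and 2.97. Cyp8b1 did not follow, at 1.05 (0.837 to 1.30) in WT and 1.73 (1.502 to 1.98) in HKO, so in WT its pericentral excess was not seen in the Glul-rich barcodes. After Cyp7a1, Abcb11 had the largest HKO over WT difference there, with 414 CPM in WT and 172 in HKO, a fold of 0.416 (0.343 to 0.504). The HKO level lay under that of HKO low-depth barcodes (225 CPM), as did that with some Glul (217 CPM). In both bins a hepatocyte difference of Abcb11 cannot be told apart from free RNA.

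**Figure D3:**
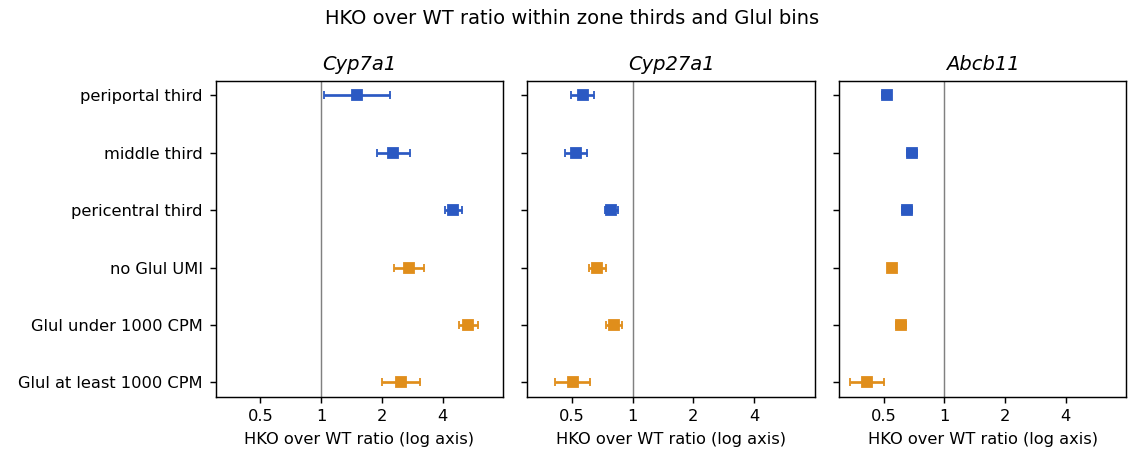
HKO over WT ratio (log axis, 95% counting intervals, 1 library per genotype) of Cyp7a1, Cyp27a1 and Abcb11 within the zones (blue) and the Glul bins (orange) of hepatocyte-like barcodes. Cyp7a1 lies above 1 in all 6 subsets, from 1.51 to 5.36, and Cyp27a1 and Abcb11 lie below 1 in all 6. In both libraries levels lie under those of low-depth barcodes for Cyp7a1 in the periportal and middle zones and without Glul, and for periportal Cyp27a1. In HKO alone they do for Cyp27a1 in the middle zone and without Glul, and for Abcb11 in the pericentral zone and with any Glul.

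The share of barcodes with Cyp7a1 was read next. Depth per barcode differed between the libraries, so each barcode was thinned to 5000 UMIs before counting. At that depth a Cyp7a1 UMI was present in 7.03% of WT hepatocyte-like barcodes (143 of 2033, 5.96 to 8.23%) and in 18.04% of HKO ones (299 of 1657, 16.2 to 20.0%). Before thinning the shares were 20.8% and 25.05%, at median depths of 19123 and 10685 UMIs. T and NK-like barcodes, which should lack the gene, gave 3.45% in WT (3 of 87, 0.717 to 9.75%, median depth 6651 UMIs before thinning) and 0 of 22 in HKO (median depth 5861), which allows a share of up to 13.6% when 3 counts are taken as the limit and 15.4% by the exact interval. The WT share lay within the interval of its T and NK-like barcodes, so at 5000 UMIs a share of that size cannot be told apart from free RNA. The HKO share lay above. At 1500 UMIs, T and NK-like barcodes gave 0.571% in WT (1 of 175) and 3.26% in HKO (14 of 429, 1.80 to 5.41%). Hepatocyte-like barcodes at that depth, with the own depth minimum of each library, gave 2.52% and 6.27%. Back at 5000 UMIs, evenly spread counts of the same mean would leave 91.3% of WT and 71.7% of HKO barcodes without a Cyp7a1 UMI, where 93.0% and 82.0% were without one.

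By zone, the thinned shares were 1.92% (13 of 678), 6.93% (47 of 678) and 12.3% (83 of 677) in WT from periportal to pericentral. In HKO they were 3.07% (17 of 553), 8.88% (49 of 552) and 42.2% (233 of 552, 38.1 to 46.5%). Among the zones, only the pericentral shares differed between the libraries beyond their intervals, and both periportal shares were at or below that of WT T and NK-like barcodes. In the Glul-rich barcodes 45.2% of WT (14 of 31, 27.3 to 64.0%) and 60.5% of HKO (49 of 81, 49.0 to 71.2%) had a Cyp7a1 UMI, and these intervals overlapped. The shares of the other Glul bins lay apart beyond their intervals, at 5.21% in WT and 11.25% in HKO without Glul and at 7.31% and 27.2% with some Glul. Both shares without Glul lay within the intervals of T and NK-like barcodes of their library (up to 9.75% in WT, 15.4% in HKO). So did the WT share with some Glul, and shares of that size cannot be told apart from free RNA.

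**Figure D4:**
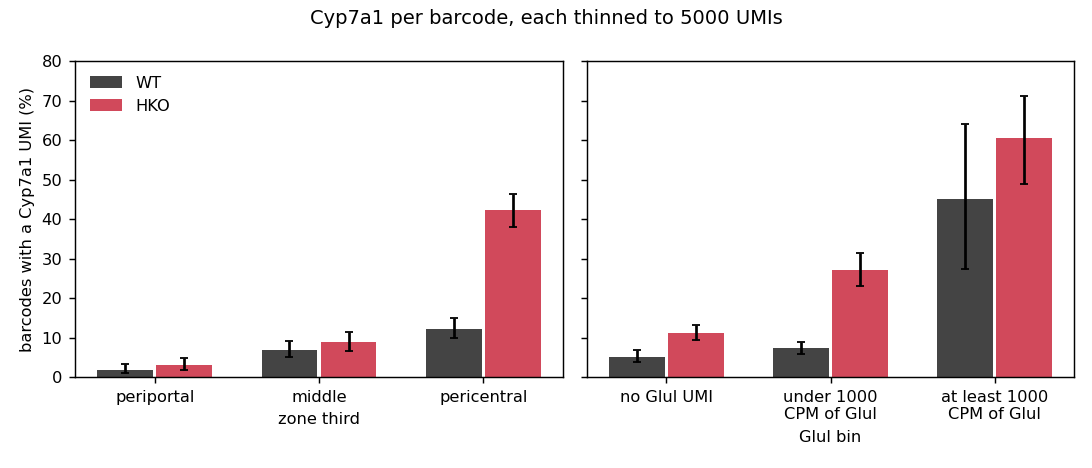
Share of hepatocyte-like barcodes with at least 1 Cyp7a1 UMI after thinning each to 5000 UMIs, by zone (left) and Glul bin (right), WT and HKO, bars with exact 95% binomial intervals. The HKO pericentral bar reaches 42.2% against 12.3% in WT, and in the Glul-rich bin the bars are 60.5% and 45.2% with overlapping intervals, while the other Glul bins stand apart (11.25% against 5.21% without Glul, 27.2% against 7.31% with some). Without Glul both bars lie within the intervals of the T and NK-like barcodes of their library.

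The unevenness of Cyp7a1 set it apart from the other members in both libraries. Unthinned, the tenth of barcodes richest in Cyp7a1 held 77.3% of its UMIs in WT and 76.4% in HKO, and the highest barcode held 22 and 35 UMIs. For the other 9 members the same share ran from 32.1% (Slc10a1 in HKO) to 54.9% (Cyp7b1 in HKO). A lower count raises this share, so the values were also compared at 5000 UMIs as variance beyond counting noise, relative to the squared mean. This was 5.25 for Cyp7a1 in WT and 5.05 in HKO. Next came Cyp7b1 at 1.55 and 2.20, and the lowest was Baat at 0.169 and 0.113. Abcb11 stood at 0.502 in WT and 1.36 in HKO, the widest gap between the libraries among the transporters.

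Genes most like Cyp7a1 were ranked by their level in barcodes with a Cyp7a1 UMI over those without one at 5000 UMIs, taking the smaller ratio of both libraries, among 2636 genes with a mean of at least 50 CPM. The first 5 were Slc1a2, Glul, Oat, Cyp2a5 and Gulo. Slc1a2, a glutamate carrier, had ratios of 12.6 in WT and 9.05 in HKO, and Glul had 6.09 and 8.07. Oat, ornithine aminotransferase, had 5.45 and 6.48. All 5 are perivenous or pericentral genes on the landmark lists. Of the members, Cyp27a1 ranked 22nd (1.76 in WT, 2.44 in HKO), Cyp8b1 25th, Slco1b2 30th and Cyp7b1 52nd, whereas Slc10a1 ranked 369th, Abcb11 753rd, Baat 1503rd, Nr1h4 2058th and Nr0b2 2143rd. The points are barcodes of the same 2 libraries, so these ratios describe them and carry no test.

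Outside hepatocytes, members were read against free RNA, estimated by scaling the low-depth barcodes to the Alb count of each class. Over all barcodes with markers of other cell classes, Cyp7a1 had 34 UMIs in WT (551 barcodes) where free RNA would give 34.8, and 71 in HKO (1745 barcodes) where it would give 83.8. Of the WT UMIs, 14 came from 25 barcodes of the sub-cluster that met the macrophage, endothelial and stellate lists, 3.75 times free RNA, where HKO had 7, or 0.754 times. Abcb11, at 535 against 573 in WT and 343 against 378 in HKO, was also at or under that level. Nr1h4 was above it, with 353 UMIs against 251 in WT and 629 against 273 in HKO. So was Cyp27a1, with 168 against 133 in WT and 196 against 96.5 in HKO. In a sub-cluster of 78 barcodes that met the macrophage and the monocyte and dendritic lists, Cyp27a1 had 12 UMIs in WT, 3.04 times free RNA, and 20 in HKO, 6.36 times. In HKO it was as far above free RNA in the sub-clusters of the macrophage, monocyte and dendritic and endothelial lists (6.27 times) and of the neutrophil, endothelial and stellate lists (6.57 times). In WT it had 11 UMIs in the former, 2.24 times free RNA, and 3 in the latter, 1.29 times. In barcodes that met the macrophage list alone it had 8 UMIs in WT, 0.459 times free RNA, and 5 in HKO, 1.24 times. In those that met the monocyte and dendritic list alone it had 13 in WT, 3.06 times, and 8 in HKO, 2.70 times. Of the other members, Slc10a1 had 449 against 420 in WT and 404 against 335 in HKO, Cyp7b1 135 against 121 and 199 against 161, and Nr0b2 162 against 170 and 138 against 107. Cyp8b1, Baat and Slco1b2 lay between 0.929 and 1.09 times free RNA in both libraries.

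Most of the Nr1h4 UMIs of mixed sub-clusters came from 3 that carried all 8 stellate cell markers beside markers of other classes, which, like the Cyp27a1 sub-clusters, were singled out after their values were seen. In the smallest, of 40 barcodes that also met the neutrophil and endothelial lists, Nr1h4 had 52 UMIs in 8 WT barcodes, 11.8 times the 4.41 of free RNA, and 156 UMIs in 32 HKO barcodes, 36.2 times the 4.31 of free RNA. A Nr1h4 UMI was present in 100% and 90.6% of them. In another, of 109 barcodes, the counts were 55 and 138, or 6.31 and 9.77 times free RNA, and in the last, of 101 barcodes, 52 and 96, or 1.93 and 3.17 times. Abcb11, a target of FXR, had 17 and 9 UMIs in the smallest sub-cluster, against 10.1 and 5.96 of free RNA. T and NK-like barcodes gave Nr1h4 at 0.919 and 1.21 times free RNA. These sub-clusters were defined on genes of the same barcodes, so this is a description, and their mixed markers leave them without a cell type name.

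The rest of the pathway was read from 3 lists, of which the counts are descriptive. Of 16 further synthesis and conjugation genes, 14 had at least 10 CPM, and 2 of these were above a ratio of 1 and 12 below. By 1.5-fold or more, 0 were higher (2.38% of all genes) and 4 were lower (4.38%). Their median log2 ratio was -0.30, beside -0.01 over all genes. Cyp2c70, which makes the muricholic acids of mice, was lowest at 288 CPM in WT and 110 in HKO, a fold of 0.381 (0.364 to 0.398). Cyp39a1, an oxysterol 7α-hydroxylase, followed at 0.619, and the highest were Akr1d1, the 5β-reductase, at 1.10 and Abcd3, a peroxisomal carrier, at 1.02. Most of the listed enzymes were thus lower in the HKO library, by less than 1.5-fold in 8 of the 12.

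Of 15 further transport genes 11 were analysed, and 2 were above a ratio of 1 and 9 below, with 0 higher by 1.5-fold or more (2.38% of all genes), 3 lower (4.38%) and a median log2 ratio of -0.19. The lowest were Ephx1, at 0.621, and Abcg5, at 0.623, which exports sterols into bile with Abcg8. The highest were the uptake carriers Slco1a1 and Slco1a4, both at 1.17. Of 16 further regulators 13 were analysed, and 7 were above 1 and 6 below, with 0 higher and 0 lower by 1.5-fold or more (2.38% and 4.38% of all genes) and a median log2 ratio of 0.04. Fgfr4, the receptor through which intestinal FGF15 represses Cyp7a1, had the lowest ratio at 0.770 (0.689 to 0.859), followed by Nr1i3 at 0.815, and Prox1, a repressor of Cyp7a1, had the highest at 1.42 (1.37 to 1.47), followed by Ppargc1a at 1.24.

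**Figure D5:**
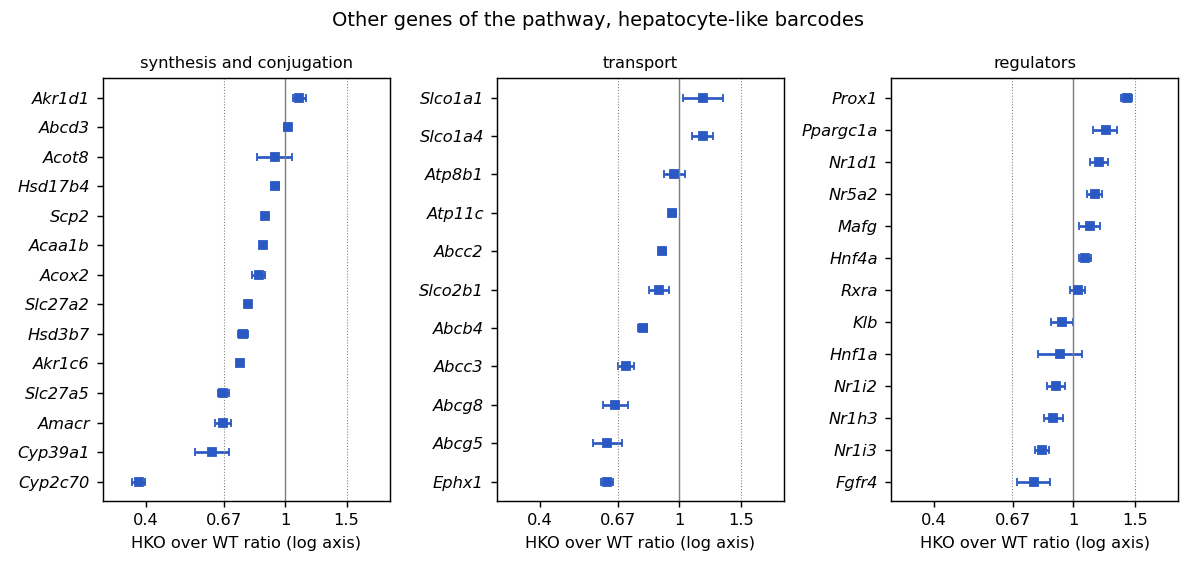
HKO over WT ratio (log axis, dotted lines at 1.5-fold, 95% counting intervals, 1 library per genotype) of the other pathway genes with a mean of at least 10 CPM in hepatocyte-like barcodes. In the synthesis panel 12 of 14 genes lie below 1, with Cyp2c70 at 0.381, and in the regulator panel all 13 lie within 1.5-fold.

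The 3 targets with a seed match lay above a ratio of 1 and under 1.5-fold. Abca1 stood at 194 CPM in WT and 220 in HKO, a fold of 1.14, Crot at 976 and 1101 CPM, a fold of 1.13, and Cpt1a at 223 and 324 CPM, a fold of 1.45. By zone, from periportal to pericentral, Abca1 stood at 221, 152 and 206 CPM in WT and 218, 203 and 238 in HKO. Crot stood at 1104, 925 and 894 CPM in WT and 1114, 1055 and 1127 in HKO, and Cpt1a at 234, 210.0 and 225 in WT and 317, 321 and 335 in HKO. Over all analysed genes with CAATGCA in the 3'UTR (524 genes) the median log2 ratio was 0.00, and over those without it (6381 genes) it was -0.01.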

How the data were processed

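Droplet-based 3' RNA sequencing was analysed for 1 WT and 1 HKO library. The deposited values were raw UMI counts per gene and barcode, without normalization, made by the authors with Cell Ranger 7.1.0 according to the file header. The submitters' processing notes name the build mm10. The counting options, the annotation release and how barcodes were chosen are not given in the sources used here. Barcode sequences were used for neither library, since those of WT were not analysed here, so shared barcodes were not counted.

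The 10 members, the other lists, the zone landmarks and the rules were chosen with earlier results of these data known. Droplets needed a minimum of 500 UMIs and 300 genes, with no more than 50% mitochondrial UMIs. Droplets were clustered together with scanpy 1.11.5 (2000 variable genes, 30 components, 15 neighbours, Leiden resolution 1), and clusters were named when 3 or more markers of a list were found in 10% of droplets at 2-fold over the rest. Scrublet was run on droplets of at least 5000 UMIs. It marked 2 in WT and 4 in HKO, so the top 0.8% per 1000 were left out instead (46 and 33). CPM are the summed UMIs of a gene in a class per 1000000 UMIs, with exact Poisson intervals. Ratios have exact intervals conditional on the summed count, and shares have exact Clopper-Pearson intervals. Genes with a mean of at least 10 CPM over both libraries entered counts over all genes. All members were named in the comparisons between genotypes, zones, low-depth barcodes and free RNA and in the likeness ranks, and some of them in the depth, mitochondrial and Glul bins. Of each further list the 2 highest and 2 lowest ratios were named. The ratio and interval code was tested on simulated counts. Zone scores were means of scaled log values, divided into 3 equal parts per library. No p-value was computed. Alternatives covered depth, weighting, thinning, doublets, mitochondrial share, scaling and zone definition.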

Additional observations from a re-analysis of the deposited data

Results flagged for a closer look

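The zone gradient of Nr1h4 had opposite directions in the libraries. Its pericentral over periportal ratio was 0.738 in WT and 1.14 in HKO. The difference was not tested, since there was 1 library per genotype. The intervals were 0.701 to 0.776 in WT and 1.06 to 1.23 in HKO, and of the 10 members it was the only one whose intervals lay on opposite sides of 1. With a zone score from Cyp2e1 and Cyp2f2 alone the WT ratio became 1.13 and the HKO ratio 1.38, and with the own depth minimum of each library the HKO ratio was 1.03.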

How the results depend on the processing

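No paired analysis was possible because there was 1 library per genotype. For the same reason no replicate could be left out. Over 12 alternatives the Cyp7a1 HKO over WT ratio stayed between 2.48 and 4.21. It was 3.31 with the own depth minimum of each library, 3.30 without barcodes of at least 1000 CPM of Glul, 2.48 in those barcodes alone and 4.21 at 5000 to 20000 UMIs. These last 3 settings were added after the data were seen. The number of members at least 1.5-fold higher was 2 in the Glul-rich barcodes, where Cyp8b1 passed too. The number at least 1.5-fold lower was 1 with equally weighted barcodes, with a mitochondrial share of at most 20%, with totals free of mitochondrial genes and at 5000 to 20000 UMIs, and 4 in the Glul-rich barcodes. Of 120 member ratios, 3 reversed against a value whose interval left out 1: Nr1h4 to 0.983 at 10000 UMIs or more, and Slc10a1 to 0.919 and Baat to 1.11 in the Glul-rich barcodes. Cyp7b1, whose interval held 1, was at 0.668 there. Of 140 zone ratios, 2 reversed in the same sense, both with the score from Cyp2e1 and Cyp2f2 alone: Nr1h4 in WT to 1.13 and Abcb11 in HKO to 1.18. The Cyp7a1 zone ratio in HKO was 12.9 with the own depth minimum, 18.3 with shared limits, 16.2 with the score from Cyp2e1 and Cyp2f2 and 19.2 after thinning, and in WT it was 6.37 with that score and 6.22 after thinning. The share of barcodes with a Cyp7a1 UMI was 2.52% in WT and 6.27% in HKO at 1500 UMIs, and 12.5% and 25.4% at 10000 UMIs. T and NK-like barcodes gave 0.571% in WT and 3.26% in HKO at 1500 UMIs. With a mean of at least 1 CPM, 626 genes were at least 1.5-fold higher and 679 lower, and 148 and 176 at 2-fold. The cause of these shifts was not tested, beyond the fewer counts of rarer genes and of thinned barcodes. Low counts limit the periportal Cyp7a1 values (73 UMIs in WT, 51 in HKO), the fold above 40000 UMIs (8 HKO barcodes) and the T and NK-like shares.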
